A study of Homo sapiens with 80 samples.

Results

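The RNA-seq experiment described here targeted the zinc finger protein gene ZFP91 with Cas9 in parental SU-DHL-1 cells, an established line of ALK-positive anaplastic large cell lymphoma, which is a T-cell lymphoma. Its members are 6 of the 80 samples of the series, taken by the column labels of 1 deposited count table. The KO group held 3 libraries from cells given 1 µg/ml doxycycline for 96 h. The WT group held 3 libraries from cells given no doxycycline. All 6 came from cells that express Cas9 and carry a doxycycline-inducible vector for a guide RNA against ZFP91. Doxycycline, guide induction and DNA cutting were therefore present in the KO group and absent from the WT group, and their effects cannot be told apart from that of losing ZFP91. Nothing in the labels ties a library to a separate culture, so p-values measure the spread between these libraries, which may be technical. The same table holds 6 libraries of regrown cells, which are 3 independent pools selected for lenalidomide resistance and later kept off the drug, with the same KO and WT treatments. A second table holds parental cells given 2.5 µM lenalidomide or DMSO for 18 h and read by 3' digital gene expression (DGE, which counts transcript ends), with 3 libraries each.

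ZFP91 is a nuclear zinc finger protein that has been described as an atypical ubiquitin ligase acting on the kinase NIK in noncanonical NF-kB signalling. It is also a neosubstrate of cereblon. Lenalidomide binds cereblon, the substrate receptor of the CRL4 ubiquitin ligase, and brings to it the zinc finger proteins IKZF1, IKZF3, ZFP91 and others for degradation. The series title places ZFP91 and IKZF1 together in resistance to this class of drugs.

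The 3 KO libraries held 15387114 to 21817914 counts and the 3 WT libraries 17008139 to 20408212 counts. KO replicate 1 stood apart on the first principal component of log2 CPM (counts scaled to a common library total), which took 37.4% of the variance, with a score of 55.6 against -20.3 to -2.0 for the other 5. The libraries further varied in how their values followed gene length. The rank correlation of a library's deviation with gene span was 0.149, -0.308 and -0.101 in the KO libraries and 0.011, -0.047 and -0.227 in the WT libraries, so the groups overlapped on it. Of the markers listed for T cell and lymphoma identity, some were high and others at or near 0. TNFRSF8, which encodes CD30, and ALK averaged 587 and 587 CPM in KO libraries and 535 and 552 CPM in WT libraries, and the cytotoxic granule genes GZMB and PRF1 were also high. CD2, CD3E and CD7 were at 0 in all 6 libraries, and CD4, TRAC and TRBC2 averaged at most 0.965 CPM. CD5 averaged 83.9 CPM in KO libraries and 95.6 CPM in WT libraries, and CD3D 27.1 and 35.8 CPM. The summed 15 markers of T cell and lymphoma identity gave 5380 to 5580 CPM in KO libraries and 5530 to 5750 CPM in WT libraries. Within that sum STAT3 averaged 1530 CPM in KO libraries and 1890 CPM in WT libraries, GZMB 1350 and 1220 CPM, and PRF1 1010 and 969 CPM. Of 8 B cell markers 6 were at 0, and their sum stayed between 0.183 and 0.664 CPM in KO libraries and between 0.098 and 0.575 CPM in WT libraries. The 10 myeloid markers summed to 396 to 409 CPM in KO libraries and 324 to 339 CPM in WT libraries, nearly all of it from CD163, a scavenger receptor gene, while LYZ and MPO were at 0. The 12 epithelial and stromal markers summed to 6.90 to 8.12 CPM in KO libraries and 8.05 to 9.73 CPM in WT libraries, with PECAM1 at 0. The part of these marker differences in the results was not tested.

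The targeted gene itself kept most of its RNA. ZFP91 (chromosome 11, 58579063 to 58621550, GRCh38) had 93.4, 86.9 and 87.0 CPM in KO libraries, against 111, 116 and 110 CPM in WT libraries. The groups did not overlap, and the log2 fold change of KO over WT was -0.34 ± 0.08 (SE, n = 3 each), with an unadjusted p of 0.0018 and an adjusted p of 0.158 in edgeR's quasi-likelihood test, so it was not called at the threshold of 0.05. DESeq2 gave an adjusted p of 0.0246. Cas9 leaves small insertions and deletions, and reads counted over a whole gene do not measure whether the protein is made, so this level checks the labels only in part.

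Of the 6 protein-coding genes on each side of ZFP91, 3 were expressed enough to be tested. LPXN, the next gene, which encodes the focal adhesion adaptor leupaxin, had 37.7, 31.8 and 33.2 CPM in KO libraries, against 50.9, 46.4 and 49.0 CPM in WT libraries (log2 fold change -0.51 ± 0.10, adjusted p = 0.0825 in edgeR). CNTF, on the other side, which shares a readthrough transcript with ZFP91 so that its counts are uncertain, gave -0.30 ± 0.37 (adjusted p = 0.913) and FAM111B -0.04 ± 0.09 (adjusted p = 0.961). The values at LPXN are lower in every KO library than in any WT library, as they are at ZFP91, and neither gene passed edgeR's test. LPXN had an adjusted p of 0.00307 in DESeq2 and of 0.0176 without KO replicate 1, and gave -0.42 ± 0.14 in regrown cells (adjusted p = 0.0351). The other 9 were olfactory receptor and glycine acyltransferase genes with between 0 and 6 counts over the 6 libraries.

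Of 13354 genes tested, 57 were called at an adjusted p under 0.05, which is 0.427% of them. Lower expression in KO cells was the more frequent direction, with 49 genes lower (0.367%) and 8 higher (0.0599%). At an unadjusted p under 0.05 there were 675 lower and 442 higher. The median log2 fold change of all genes was 0.006. The called changes were between 0.48 and 2.10 in size on the log2 scale, and 22 reached at least 1. In all 57 the KO and WT values did not overlap, as in 15.3% of all genes tested. The number called rested on single libraries, and was 0 without WT replicate 2 (742 at an unadjusted p under 0.05), 10 without KO replicate 3, 11 without WT replicate 1, 16 without WT replicate 3, 80 without KO replicate 2 and 110 without KO replicate 1, the library that stood apart. None of the 57 changed sign in any of these fits, and DESeq2 called 198 genes, all 57 among them.

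**Figure D1:**
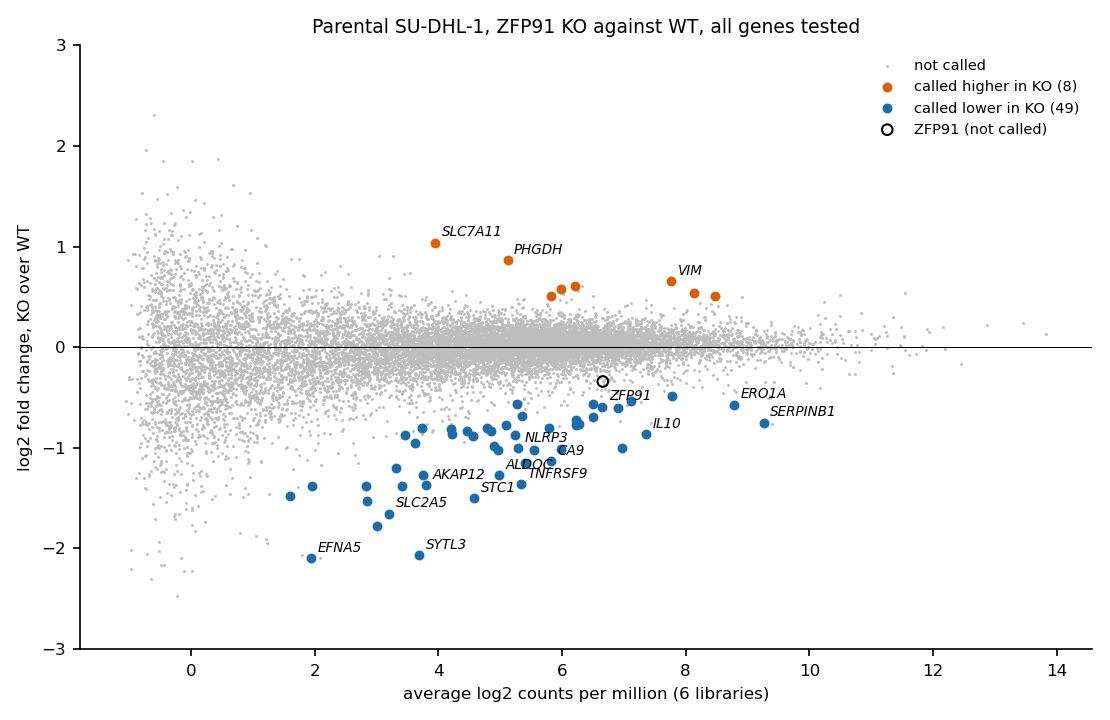
Log2 fold change of KO over WT (vertical axis) against average log2 CPM over the 6 parental libraries (horizontal axis) for the 13354 genes tested, with the 8 genes called higher in orange and the 49 called lower in blue. The called genes lie mostly below 0, down to -2.10 for EFNA5, and ZFP91 (circle) sits at -0.34.

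Several of the called falls were in single genes of immune function. TNFRSF9, which encodes the costimulatory receptor 4-1BB (CD137) and lies on chromosome 1 from 7915871 to 7940839, had the smallest p of all genes. It had 24.7, 19.5 and 24.1 CPM in KO libraries, against 58.4, 58.5 and 57.7 CPM in WT libraries. Both groups were tight and lay far apart, and the log2 fold change was -1.36 ± 0.11 (adjusted p = 0.00405 in edgeR; -1.41 to -1.26 over the fits without 1 library). NLRP3, the sensor of the NLRP3 inflammasome, had 27.5, 24.7 and 26.2 CPM in KO libraries, against 53.1, 54.9 and 48.7 CPM in WT libraries. It fell by 1.00 ± 0.09 on the log2 scale (adjusted p = 0.00448) and was the only call among 13 tested genes of the interleukin-1 pathway list, whose median was -0.067.

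IL10, which encodes an anti-inflammatory cytokine that STAT3 can induce, had 92.0, 138 and 119 CPM in KO libraries, against 191, 209 and 235 CPM in WT libraries. Its KO values were more scattered, with the lowest in the library that stood apart, and it fell by 0.86 ± 0.14 (adjusted p = 0.0485; by 0.72 without KO replicate 1, with an adjusted p of 0.0104). It was the only call among the 6 cytokines and chemokines tested and among the 27 tested genes of the ALK and STAT3 list. TREM1, a receptor that amplifies innate immune signals, had 3.71, 3.68 and 3.55 CPM in KO libraries, against 9.06, 12 and 10.3 CPM in WT libraries, and fell by 1.52 ± 0.17 (adjusted p = 0.0075). S1PR1, the sphingosine-1-phosphate receptor that guides lymphocyte egress, fell by 0.78 ± 0.10, and SEMA4D (CD100) by 0.88 ± 0.14. The NLR family gene NLRP7 fell by 0.80 ± 0.12 and the Pellino ubiquitin ligase gene PELI3 by 0.81 ± 0.13.

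Among the falls were 3 clade B serpins, which are intracellular protease inhibitors. SERPINB1, which inhibits neutrophil serine proteases, had 419, 498 and 463 CPM in KO libraries, against 756, 753 and 809 CPM in WT libraries. The KO values lay well below the WT values, and it fell by 0.75 ± 0.09 (adjusted p = 0.0137). SERPINB3 fell by 0.72 ± 0.09 and SERPINB4 by 0.48 ± 0.08. The last pair are near-identical neighbours that share reads, and how the authors' counting split them is not given in the sources used here, so their separate values are uncertain.

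**Figure D2:**
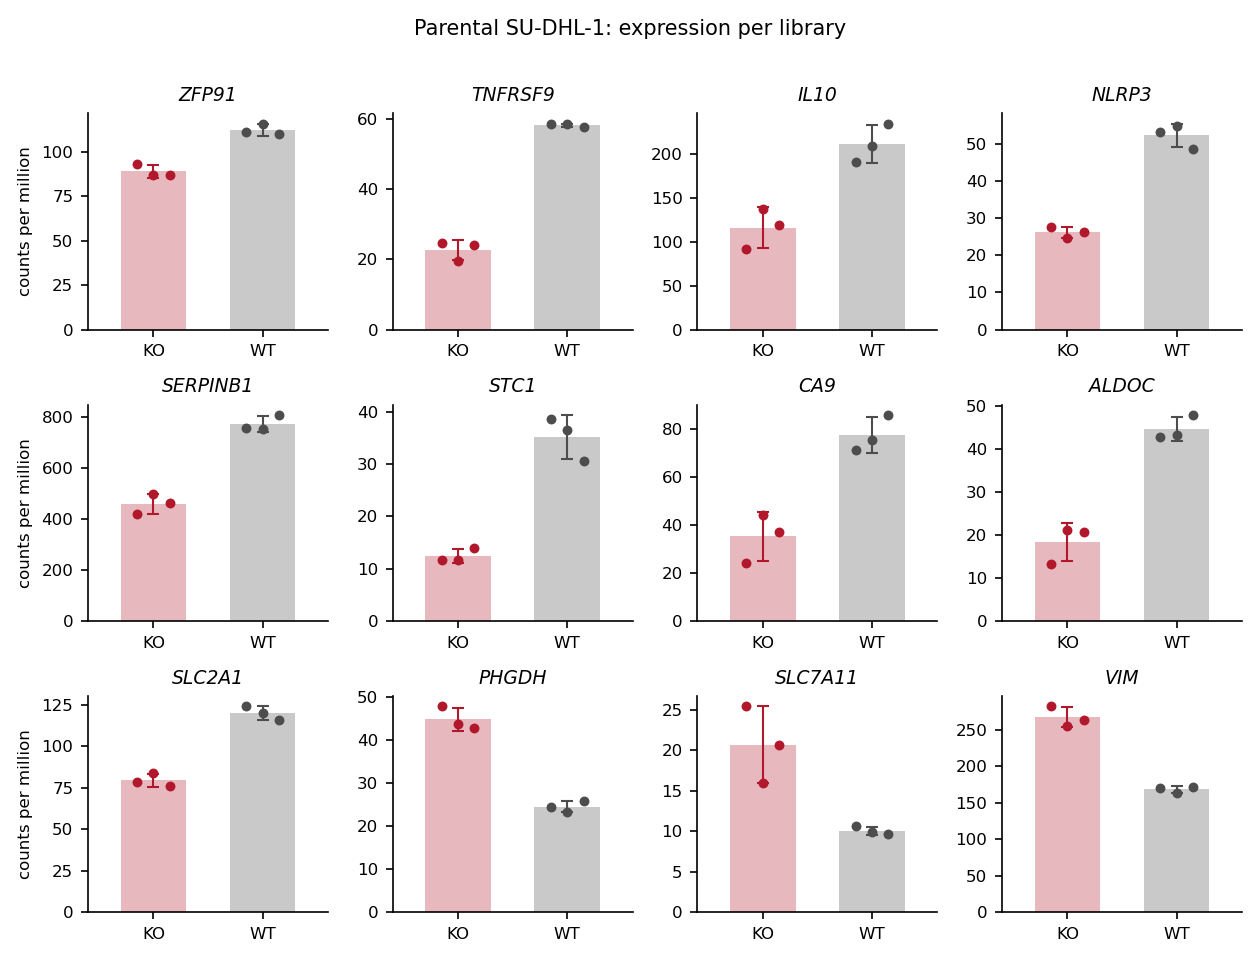
CPM of 12 genes in each of the 3 KO (red, left) and 3 WT (grey, right) parental libraries, with bars at the mean and error bars of 1 SD. TNFRSF9 lies between 19.5 and 24.7 CPM in KO against 57.7 to 58.5 CPM in WT, while ZFP91 itself lies between 86.9 and 93.4 CPM in KO against 110 to 116 CPM in WT.

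AP-1 factors with BATF family partners are known regulators of activation genes such as TNFRSF9 in T cells, and the RefSeq promoter of TNFRSF9 holds 1 match to the AP-1 letters TGANTCA. It is shown here because TNFRSF9 had the smallest p. The sequence below, 5' to 3' on the gene's strand, runs from 250 bases before to 50 after the annotated start (chr1:7940790-7941089, minus strand, GRCh38.p14), with the match in capitals, 44 bases upstream.
TNFRSF9: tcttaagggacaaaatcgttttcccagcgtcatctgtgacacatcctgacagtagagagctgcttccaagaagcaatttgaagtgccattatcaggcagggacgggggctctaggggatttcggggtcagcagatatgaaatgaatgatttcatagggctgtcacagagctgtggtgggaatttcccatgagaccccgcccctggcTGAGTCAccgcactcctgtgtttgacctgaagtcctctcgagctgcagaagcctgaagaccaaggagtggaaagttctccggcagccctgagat
Such a match, on either strand, is held by 7.76% of all promoters given, and by 3 of the 40 genes called lower that had an entry (7.5%), which is near the background.

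Genes of the hypoxia and glycolysis list, many of which hypoxia-inducible factors are known to induce, lay mostly below 0. Of 31 tested, 6 were called lower and 0 higher (21 lower and 0 higher at an unadjusted p under 0.05), 29 were below 0, and the median was -0.378, against 0.006 for all genes. DESeq2 called 13 lower and 0 higher, against 155 lower and 43 higher among all genes. The 6 lower calls became 0 without KO replicate 3 and without WT replicate 2, 1 without WT replicate 1, 1 without WT replicate 3, and 7 without KO replicate 1. Among all genes those fits called 10, 0, 11, 15 and 92 lower, in that order. With the length score of each library as a covariate 21 were called lower. That fit called 640 lower among all genes, where the main fit called 49.

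Among them were enzymes of sugar metabolism and a glucose transporter. ALDOC, the brain-type aldolase of glycolysis, had 13.3, 21.3 and 20.7 CPM in KO libraries, against 42.8, 43.4 and 48.0 CPM in WT libraries, and fell by 1.27 ± 0.17 (adjusted p = 0.0151; by 1.09 without KO replicate 1). PFKFB4, which sets the level of the glycolytic activator fructose-2,6-bisphosphate, had 20.3, 19.8 and 21.7 CPM in KO libraries, against 46.4, 40.0 and 38.8 CPM in WT libraries, and fell by 1.02 ± 0.11 (adjusted p = 0.00653). SLC2A1, the glucose transporter GLUT1, had 78.4, 83.9 and 76.3 CPM in KO libraries, against 124, 120 and 116 CPM in WT libraries, and fell by 0.59 ± 0.08 (adjusted p = 0.0176). In these 3 genes each KO value lay below each WT value, with the widest KO spread in ALDOC.

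CA9, the carbonic anhydrase IX gene and a common marker of hypoxia, had 24.2, 44.3 and 37.2 CPM in KO libraries, against 71.1, 75.5 and 85.8 CPM in WT libraries (fall of 1.13 ± 0.19, adjusted p = 0.0485; 0.93 without KO replicate 1). The mitophagy receptor genes BNIP3 and BNIP3L fell by 0.77 ± 0.11 (adjusted p = 0.0214) and 0.56 ± 0.09 (adjusted p = 0.0485). Below the threshold were PDK1, the kinase that holds pyruvate back from the mitochondrion (-0.55 ± 0.09, adjusted p = 0.0533), the collagen prolyl hydroxylase gene P4HA2 (-0.95 ± 0.17, adjusted p = 0.0568) and PGK1 (-0.50 ± 0.13, adjusted p = 0.224). LDHA gave -0.18 ± 0.08, GAPDH -0.07 ± 0.08 and VEGFA 0.05 ± 0.11. Outside the list, PGM1, phosphoglucomutase, fell by 0.77 ± 0.10 and ERO1A, the oxidase of disulfide formation in the endoplasmic reticulum, by 0.57 ± 0.10. STC1, a secreted glycoprotein, had 11.7, 11.6 and 14 CPM in KO libraries, against 38.6, 36.4 and 30.5 CPM in WT libraries, and fell by 1.5 ± 0.13 (adjusted p = 0.00405).

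**Figure D3:**
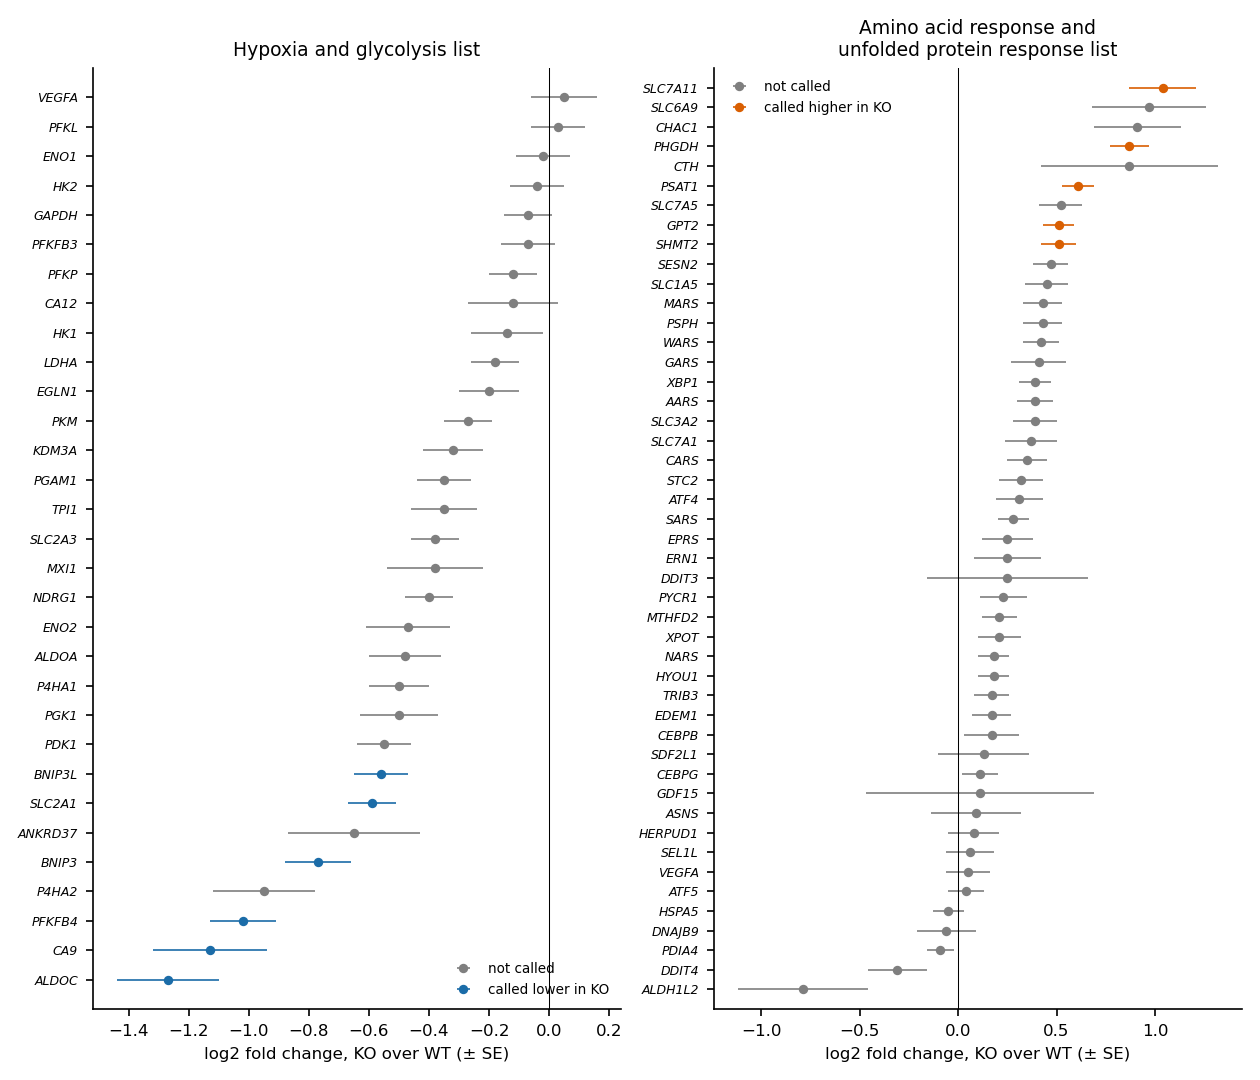
Log2 fold change of KO over WT with its SE (horizontal axis) for each tested member of the hypoxia and glycolysis list (left, 31 genes) and the amino acid and unfolded protein response list (right, 47 genes), ordered by value. The called members lie between -1.27 and -0.56 on the left and between 0.51 and 1.04 on the right.

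The promoters of 5 of the 6 called members of this list, all but BNIP3L, are shown because hypoxia-inducible factors bind a core of ACGTG or GCGTG. Each is in GRCh38.p14, from RefSeq, 5' to 3' on the gene's strand over the same window, with every match on either strand in capitals. The windows are chr17:28576846-28577145 for ALDOC, chr10:131981874-131982173 for BNIP3, chr3:48556754-48557053 for PFKFB4 and chr1:42958819-42959118 for SLC2A1, all on the minus strand, and chr9:35673678-35673977 for CA9 on the plus strand.
ALDOC: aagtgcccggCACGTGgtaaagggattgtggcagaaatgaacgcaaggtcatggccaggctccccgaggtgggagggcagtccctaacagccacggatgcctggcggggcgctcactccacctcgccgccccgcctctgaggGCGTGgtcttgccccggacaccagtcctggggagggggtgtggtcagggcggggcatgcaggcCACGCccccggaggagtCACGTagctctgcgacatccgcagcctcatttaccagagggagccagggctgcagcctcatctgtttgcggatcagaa
BNIP3: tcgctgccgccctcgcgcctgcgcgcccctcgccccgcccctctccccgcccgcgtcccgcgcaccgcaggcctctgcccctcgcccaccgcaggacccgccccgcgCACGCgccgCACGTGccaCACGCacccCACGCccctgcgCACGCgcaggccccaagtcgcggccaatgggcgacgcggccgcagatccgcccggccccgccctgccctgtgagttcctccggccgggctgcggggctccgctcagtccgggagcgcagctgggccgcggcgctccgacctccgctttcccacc
CA9: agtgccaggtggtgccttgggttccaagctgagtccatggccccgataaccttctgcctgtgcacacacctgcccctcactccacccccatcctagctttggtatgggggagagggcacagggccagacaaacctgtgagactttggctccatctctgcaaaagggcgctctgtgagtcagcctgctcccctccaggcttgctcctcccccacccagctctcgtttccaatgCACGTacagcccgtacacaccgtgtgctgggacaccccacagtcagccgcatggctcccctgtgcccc
PFKFB4: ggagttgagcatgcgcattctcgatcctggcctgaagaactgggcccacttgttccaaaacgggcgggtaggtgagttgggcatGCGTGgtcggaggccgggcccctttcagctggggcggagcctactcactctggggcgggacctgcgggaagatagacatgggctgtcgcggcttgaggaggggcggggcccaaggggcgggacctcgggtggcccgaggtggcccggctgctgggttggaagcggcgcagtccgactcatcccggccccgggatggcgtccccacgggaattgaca
SLC2A1: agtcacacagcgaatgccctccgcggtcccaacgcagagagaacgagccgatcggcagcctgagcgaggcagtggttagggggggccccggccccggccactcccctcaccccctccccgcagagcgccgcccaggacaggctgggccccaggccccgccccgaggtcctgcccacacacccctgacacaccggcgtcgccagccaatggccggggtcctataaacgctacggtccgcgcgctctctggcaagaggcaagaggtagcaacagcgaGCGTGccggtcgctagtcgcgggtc
BNIP3 holds 6 matches and ALDOC 5, some overlapping, while CA9, PFKFB4 and SLC2A1 hold 1 each. The match in CA9 starts 18 bases upstream of the start and that in SLC2A1 at base 26 of the transcript. All 5 hold the core, but so do 48.4% of all promoters in the table and 21 of the 40 with an entry among the genes called lower (52.5%).

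Other large falls fell into several kinds of genes. SYTL3, which encodes a synaptotagmin-like partner of Rab27 in vesicle release, had 6.75, 4.14 and 4.05 CPM in KO libraries, against 22.5, 19.5 and 19.8 CPM in WT libraries, and fell by 2.07 ± 0.20 (adjusted p = 0.00455). RAB27B, one of those Rab27 GTPases, fell by 0.95 ± 0.12 (adjusted p = 0.0151). SLC2A5, the fructose transporter, had 4.44, 4.30 and 4.47 CPM in KO libraries, against 12.5, 15.4 and 13.8 CPM in WT libraries, and fell by 1.65 ± 0.15 (adjusted p = 0.00405). The 3 KO values of SLC2A5 were nearly equal and far below the WT values.

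EFNA5, a ligand of Eph receptors, had the largest fall, of 2.10 ± 0.27 (adjusted p = 0.0151), at low levels of 1.85, 0.933 and 1.47 CPM in KO libraries, against 5.62, 5.87 and 6.59 CPM in WT libraries. MMP20, a matrix metalloproteinase, fell by 1.77 ± 0.17. MVP, the major vault protein, had 37.7, 43.7 and 44.3 CPM in KO libraries, against 87.0, 84.8 and 81.5 CPM in WT libraries, and fell by 1.01 ± 0.09 (adjusted p = 0.00405). MVP was the 1 call among the 6 tested genes of the drug efflux list. GTPBP8, a GTP-binding protein gene, fell by 1.15 ± 0.11, with 24.8, 27.1 and 26.2 CPM in KO libraries, against 54.7, 65.2 and 53.7 CPM in WT libraries.

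Signalling genes were among the falls as well. PIK3R6, a regulatory subunit of phosphoinositide 3-kinase gamma, fell by 1.27 ± 0.13 (adjusted p = 0.00613), and APBB1IP, the Rap1 effector RIAM of integrin activation, by 0.88 ± 0.10. ERRFI1, a feedback inhibitor of receptor tyrosine kinases, fell by 0.83 ± 0.11, and EGR2, an early response transcription factor, by 0.83 ± 0.13. EGR2 was the 1 call among 14 tested MAPK feedback genes. INSIG1, which retains the sterol sensor complex in the endoplasmic reticulum, fell by 0.69 ± 0.10 and was the 1 call among 30 tested genes of cholesterol and fatty acid synthesis, 21 of which were below 0 (median -0.161; 6 lower and 0 higher at an unadjusted p under 0.05). SPTLC3, a subunit of serine palmitoyltransferase, had 103, 66.4 and 80.9 CPM in KO libraries, against 174, 173 and 153 CPM in WT libraries, and fell by 1.00 ± 0.15. LMNA, of the nuclear lamina, fell by 0.56 ± 0.09, RORA, a nuclear receptor, by 0.60 ± 0.09, and SPP1, which encodes osteopontin, by 0.86 ± 0.13.

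Among the 8 rises PHGDH had the smallest p and SLC7A11 the largest change. PHGDH, the first enzyme of serine synthesis, had 47.8, 43.7 and 42.9 CPM in KO libraries, against 24.5, 23.3 and 25.8 CPM in WT libraries, and rose by 0.87 ± 0.10 on the log2 scale (adjusted p = 0.0075 in edgeR). PSAT1, the next enzyme of that path, had 88.1, 89.6 and 90.2 CPM in KO libraries, against 57.3, 60.0 and 57.9 CPM in WT libraries, and rose by 0.61 ± 0.08 (adjusted p = 0.0138). PSPH, the last enzyme, gave 0.43 ± 0.10 (adjusted p = 0.158). The KO values of PHGDH and PSAT1 differed little among themselves and lay well above the WT values.

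SHMT2, which turns serine into glycine and one-carbon units in mitochondria, had 391, 445 and 412 CPM in KO libraries, against 290, 284 and 306 CPM in WT libraries, and rose by 0.51 ± 0.09 (adjusted p = 0.0491). SLC7A11, the cystine importer, had 25.4, 16.0 and 20.7 CPM in KO libraries, against 10.6, 9.96 and 9.61 CPM in WT libraries, and rose by 1.04 ± 0.17 (adjusted p = 0.0483). GPT2, a mitochondrial alanine aminotransferase, rose by 0.51 ± 0.08 (adjusted p = 0.042). SLC7A11 was the least even of the 3, with its highest value in KO replicate 1, and its log2 fold change was 0.87 without that library.

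These 5 genes belong to the amino acid response and unfolded protein response list, which gathers targets of ATF4 and of the endoplasmic reticulum stress sensors. Of its 47 tested genes 5 were called higher and 0 lower (24 higher and 1 lower at an unadjusted p under 0.05), 42 were above 0, and the median was 0.252, against 0.006 for all genes. DESeq2 called 14 higher and 0 lower, against 43 higher and 155 lower among all genes. Below the threshold were the amino acid transporter gene SLC7A5 at 0.52 ± 0.11 (adjusted p = 0.107), SESN2 at 0.47 ± 0.09 (0.0913), the tRNA synthetase genes WARS at 0.42 ± 0.09 (0.136) and MARS at 0.43 ± 0.10 (0.158), XBP1, a transcription factor of the unfolded protein response, at 0.39 ± 0.08 (0.109), and ATF4 itself at 0.31 ± 0.12 (0.541). The lowest member was ALDH1L2, a mitochondrial folate enzyme gene, at -0.79 ± 0.33 (0.575). The chaperones HSPA5 and PDIA4 gave -0.05 ± 0.08 and -0.09 ± 0.07, and asparagine synthetase, ASNS, gave 0.09 ± 0.23. The 5 rises became 10 without KO replicate 2, and 0 without KO replicate 3, without WT replicate 1 and without WT replicate 2. They became 1 without WT replicate 3, and 1 with all 4 groups of the table in 1 fit. Among all genes those fits called 16, 0, 0, 0, 1 and 8 higher, in that order. The length score as a covariate gave 28, in a fit that called 563 higher among all genes, where the main fit called 8.

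The rises outside that list included VIM and PPP1R13L. VIM, the intermediate filament vimentin, had 282, 255 and 264 CPM in KO libraries, against 170, 163 and 172 CPM in WT libraries, and rose by 0.66 ± 0.08 (adjusted p = 0.0121). PPP1R13L, which encodes the p53 inhibitor iASPP, rose by 0.58 ± 0.08 (adjusted p = 0.0233). Neither showed overlap between KO and WT values.

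No gene of the lenalidomide pathway named in the design was called, and IKZF3 was not among the genes tested. IKZF1, the other neosubstrate in the title, had 700, 512 and 599 CPM in KO libraries, against 653, 581 and 527 CPM in WT libraries, with a log2 fold change of 0.04 ± 0.13 (adjusted p = 0.975). CRBN, the cereblon gene, gave -0.19 ± 0.10 (0.66), MYC 0.13 ± 0.16 (0.914) and BATF3, an AP-1 partner, -0.03 ± 0.14 (0.987). JUN gave -0.32 ± 0.13 (0.546) and BATF 0 ± 0.17 (0.999). The casein kinase 2 genes CSNK2A1, CSNK2A2 and CSNK2B gave -0.02 ± 0.08 (0.985), 0.12 ± 0.17 (0.928) and 0.15 ± 0.26 (0.944). IRF4, a lymphoid transcription factor on which many lymphomas depend, was nearest to the threshold, with 563, 410 and 525 CPM in KO libraries, against 851, 932 and 757 CPM in WT libraries (log2 fold change -0.76 ± 0.13, adjusted p = 0.0545; 0.0077 without KO replicate 1 and 2.63e-05 in DESeq2). Among the 13 tested genes of noncanonical NF-kB signalling 0 were called (4 lower and 0 higher at an unadjusted p under 0.05, and 1 lower by DESeq2), with BIRC3, an inhibitor of apoptosis in that pathway, at -0.61 ± 0.14 (adjusted p = 0.148) and MAP3K14, the NIK gene, at -0.23 ± 0.13.

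Of the 32 lists, 31 had a tested member and 9 held a call. In the other 22 edgeR called 0 genes. The 77 cytosolic ribosomal protein genes had a median of 0.05, with 0 at an unadjusted p under 0.05 and 0 by DESeq2, and the 37 cell cycle genes a median of -0.019, with 1 higher and 0 lower at an unadjusted p and 0 by DESeq2. The 45 interferon response genes had a median of -0.07, with 2 higher and 4 lower at an unadjusted p and 0 by DESeq2. The 13 mitochondrially encoded genes had a median of 0.241, with 11 above 0, led by MT-ATP8 at 0.60 ± 0.15 (adjusted p = 0.216 in edgeR), which DESeq2 called. Of MYC targets and ribosome biogenesis genes 27 of 32 were above 0 (median 0.104), with 6 higher and 2 lower at an unadjusted p, and DESeq2 called 1, which was lower.

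Were these genes also moved by the same treatment in the regrown, drug-resistant cells? The regrown comparison shares no library with the parental one. It called 4186 of 13107 genes (31.9%), with 2130 higher (16.3%) and 2056 lower (15.7%). Its libraries split on the gene-length axis, at -0.144, -0.143 and -0.064 in regrown KO libraries against 0.175, 0.126 and 0.293 in regrown WT libraries, with no overlap, and the rank correlation of its fold changes with gene span was -0.331, against 0.006 in parental cells. With the length score as a covariate the regrown comparison called 0 genes in edgeR (853 at an unadjusted p under 0.05), so the score and the knockout cannot be told apart there. Across 12617 genes tested in both, the correlation of the log2 fold changes was -0.018 (Pearson) and -0.069 (Spearman), given as a description with no p. ZFP91 had 98.6, 81.7 and 76.5 CPM in regrown KO libraries, against 95.1, 95.2 and 88.1 CPM in regrown WT libraries (log2 fold change -0.12 ± 0.10, adjusted p = 0.395), so those groups overlapped.

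Of the 49 genes lower in parental KO cells, 44 were tested in regrown cells, where 13 were called lower and 0 higher. These 13 are 29.5% of the genes tested, against 15.7% called lower among all genes tested in regrown cells, and 0.632% of all regrown falls. The genes called lower in parental KO cells were longer, with a median span of 42.7 kb against 28 kb for all genes tested. Regrown fold changes fell with gene span, and the part of gene length in these shared falls was not tested. The median of the 44 was -0.21, with 31 below 0. TNFRSF9 was among the shared falls, with 8.52, 4.32 and 5.62 CPM in regrown KO libraries, against 20.5, 10.2 and 13.4 CPM in regrown WT libraries (fall of 1.25 ± 0.27, adjusted p = 0.0044). MVP fell by 0.87 ± 0.19 there (adjusted p = 0.005), STC1 by 0.89 ± 0.26, NLRP7 by 1.03 ± 0.16 and FRY, a gene of cell shape and polarity, by 1.01 ± 0.14. Of the 8 genes higher in parental KO cells 1 was called higher in regrown cells and 0 lower, which is 12.5% of them and 0.0469% of all regrown rises. That gene was PSAT1 (0.49 ± 0.15, adjusted p = 0.0234).

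**Figure D4:**
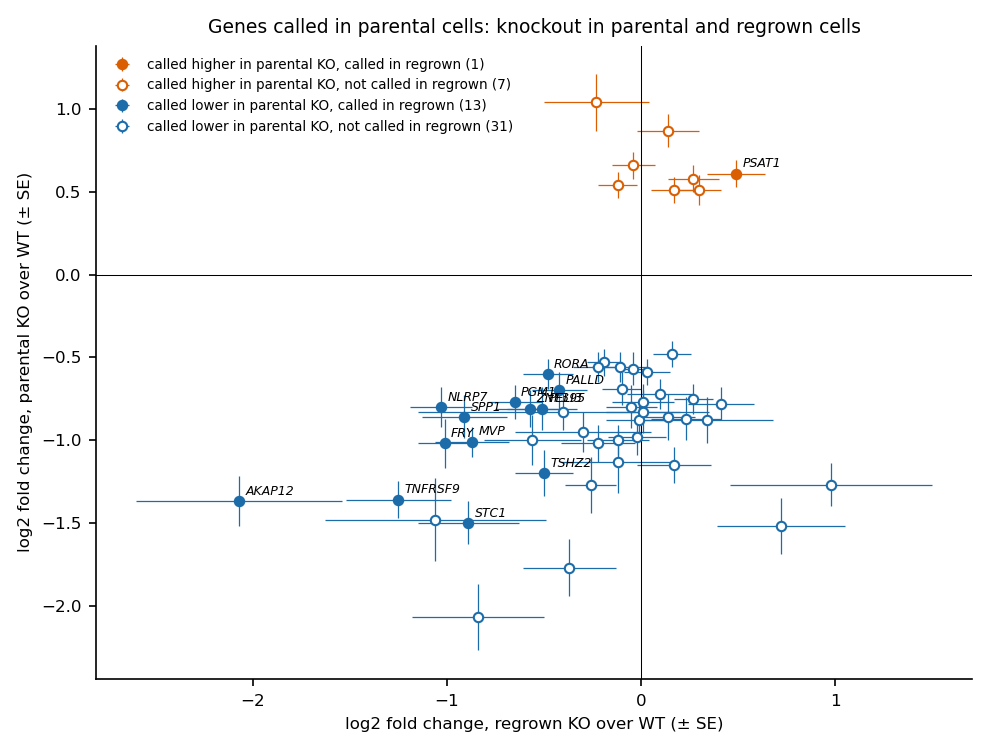
Log2 fold change in parental cells (vertical axis, with its SE) against regrown cells (horizontal axis, with its SE) for the called parental genes tested in both, filled where also called in regrown cells. The 13 filled blue points lie below 0 on both axes, and PSAT1 is the 1 filled orange point.

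The difference between the 2 knockout effects was tested over all 12 libraries as parental minus regrown. It was called for 1399 of 14267 genes (9.81%), with 761 positive (5.33%) and 638 negative (4.47%). Blocking by replicate number, which may mark the pool in regrown cells though the sample titles do not say so, gave 2257. The length score as a covariate gave 88. The count was 0 without any one of KO replicate 3, WT replicate 2, WT replicate 3, regrown KO replicate 1, regrown KO replicate 2, regrown WT replicate 1 and regrown WT replicate 3, it was 542 to 587 without regrown KO replicate 3 or KO replicate 1, and it reached 2686 without regrown WT replicate 2 and 3355 without KO replicate 2. Of the 49 parental falls 20 had a called negative difference and 0 a positive one, and of the 8 rises 4 had a positive one. The parental libraries that chose these genes also enter the difference, so these shares are a description. With the length covariate 9 and 1 were called. NLRP3 was one of them, with 12.7, 10.2 and 9.90 CPM in regrown KO libraries, against 13.6, 11.1 and 11 CPM in regrown WT libraries, where it gave -0.12 ± 0.16. Its difference of effects was -0.87 ± 0.17 (adjusted p = 0.0238 in edgeR; -0.97 ± 0.19 with the covariate, adjusted p = 0.0279).

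SERPINB1 gave 0.27 ± 0.10 in regrown cells, a difference of -1.0 ± 0.15 (adjusted p = 0.0238; 0.0089 with the covariate). ALDOC, SLC2A1 and BNIP3 had called differences of -1.0, -0.61 and -0.77, which were not called with the covariate (adjusted p = 0.105, 0.105 and 0.109). Over the hypoxia and glycolysis list the regrown median was -0.153, with 3 higher and 6 lower of 29 tested. Over all 12617 genes tested in both populations the regrown median was 0.007, with 2126 higher and 2026 lower. PHGDH had 69.1, 103 and 105 CPM in regrown KO libraries, against 80.4, 69.6 and 102 CPM in regrown WT libraries, and its difference of 0.73 ± 0.22 (adjusted p = 0.0464) was not called with the covariate (0.257). TNFRSF9 had a difference of -0.10 ± 0.32 (adjusted p = 0.863), with called falls in both populations.

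Lenalidomide directs ZFP91 protein to degradation, so the called genes were also set beside the 18 h response of parental cells to the drug. These are other libraries, read by another assay and aligned to hg19, with 335651, 395827 and 41571 counts under lenalidomide, the last far shallower, and 334908 to 348190 counts under DMSO. Of 5796 genes tested there 49 were called (0.845%), 39 higher (0.673%) and 10 lower (0.173%). Of the 49 genes lower in KO cells 33 were tested, and 9 rose and 2 fell under the drug, with 27 above 0 and a median of 0.58. Without the shallow library 10 rose and 3 fell of 37 tested, in a fit that called 105 of 6227 genes, 79 of them higher. Of the 8 genes higher in KO cells 5 were tested and edgeR called 0, as did DESeq2 of the 4 that it tested. ZFP91 RNA gave -0.50 ± 0.31 (adjusted p = 0.69).

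SLC2A5, which fell in the knockout, had 217, 221 and 224 CPM under lenalidomide, against 9.21, 15.3 and 9.67 CPM under DMSO, a rise of 4.21 ± 0.36 (adjusted p = 7.43e-10 in edgeR). SPP1 rose by 5.33 ± 0.39, AKAP12, a scaffold of protein kinase A, by 3.55 ± 0.31, and FCRLB, of the Fc receptor-like family, by 3.57 ± 0.32. In the knockout SPP1 fell by 0.86 ± 0.13, AKAP12 by 1.37 ± 0.15 and FCRLB by 0.98 ± 0.11. NLRP3 had 204, 132 and 149 CPM under lenalidomide, against 73.7, 45.8 and 54.8 CPM under DMSO, and rose by 1.5 ± 0.30 (adjusted p = 0.00404). SERPINB1 rose by 0.92 ± 0.13, SERPINB3 by 1.38 ± 0.34, SERPINB4 by 1.82 ± 0.24 and FBXO32, a muscle-atrophy ubiquitin ligase gene, by 1.27 ± 0.21. So 9 genes had called changes of opposite sign under the drug and in the knockout.

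IL10 and GTPBP8 moved the same way in both. IL10 had 29.6, 48.8 and 0 CPM under lenalidomide, against 313, 351 and 297 CPM under DMSO (it fell by 3.10 ± 0.31, adjusted p = 1.71e-08), the 0 being in the shallow library. GTPBP8 had 69.1, 66.1 and 24.9 CPM under lenalidomide, against 261, 214 and 242 CPM under DMSO (fall of 1.89 ± 0.28, adjusted p = 4.44e-05). SYTL3 gave -1.46 ± 0.38, which missed the threshold (adjusted p = 0.0505), and TNFRSF9 gave 0.18 ± 0.27 (0.933). The time, the dose and the agent differ between these experiments, and the drug also acts on IKZF1.

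**Figure D5:**
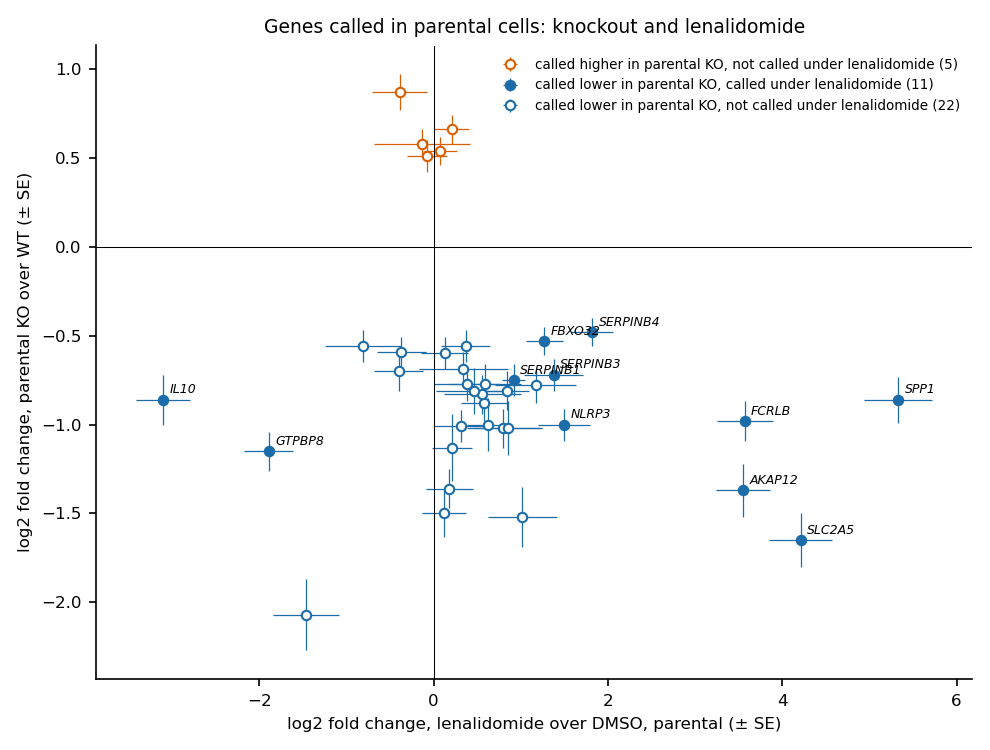
Log2 fold change of parental KO over WT (vertical axis, with its SE) against that of lenalidomide over DMSO in parental cells (horizontal axis, with its SE) for the called knockout genes tested in both, filled where also called under the drug. Of the 11 filled points 9 lie to the right of 0, up to 5.33 for SPP1, and IL10 and GTPBP8 lie to the left.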

How the data were processed

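RNA-seq was analysed from the deposited table of counts per gene (58735 genes), whole numbers to which the authors had applied no normalization, with 6 parental and 6 regrown libraries, and DGE from the deposited table of counts per gene. Per the submitters' processing notes, RNA-seq used hg38, edgeR 3.24.3, DESeq2 1.20.0 and STAR 2.6.1d, and DGE used FastQC, Bowtie2 2.2.3, DESeq2 and hg19; the counting tool and its use of strand are not given in the sources used here. In RNA-seq 27 gene names held as dates took the symbol that a gene name table pairs with their identifier. Replicates of a group differed by more than sampling noise, with a chi-square over its degrees of freedom of at least 4.81.

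Each comparison was a two-sided edgeR 4.0.16 quasi-likelihood test (R 4.3.3, limma 3.58.1, filterByExpr, TMM) on the libraries compared, called at an adjusted p (Benjamini-Hochberg over all genes tested) under 0.05. The SE was the absolute log2 fold change over the root of the F statistic, with n = 3 libraries a group, and CPM used TMM-scaled totals, except that marker sums used plain totals. DESeq2 1.42.0 was an alternative. The tests were checked on simulated counts with the same spread setting for all genes, no outlying library and no length trend. That check does not cover those features of the real libraries. Gene spans, positions and promoters came from RefSeq GRCh38.p14, matched by symbol, giving a span for 93.6% of tested genes and a promoter for 44 of the 57 called genes. The length score of a library was the rank correlation across genes of its log2 CPM deviation (prior count 2) with gene span.

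Members, gene lists and tests were chosen with earlier results of these data known. The text names the design genes, called genes by size, p and list, up to 12 a direction and 4 a list, or 2 members of a list with no call, and further called genes named after their values were seen. Of the called genes 1 is not reported here by name. The PRO-seq and CSNK2B count tables were not used here.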

Additional observations from a re-analysis of the deposited data

Results flagged for a closer look

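The effect of the knockout was set against itself in the 2 populations, as the log2 fold change in parental cells minus that in regrown cells, in 1 edgeR fit over 12 libraries. Each result here had an adjusted p under 0.05 for that difference. There were 1399 such genes in all, and 88 with the length score of each library as a covariate. The score did not overlap between regrown KO and regrown WT libraries, and its part in these differences was not tested beyond that fit. Over the fits without 1 library the number of such genes was 0 to 3355. The parental libraries that chose the genes called in parental cells also enter the difference. For those genes the sign of a called difference is largely set by that choice.

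Among genes called lower in parental KO cells the differences were negative. They were -2.24 for TREM1, -2.23 for PIK3R6, -1.40 for MMP20, -1.31 for GTPBP8, -1.18 for S1PR1 and -1.10 for LINC02577. They were -1.0 for both SERPINB1 and ALDOC, -0.99 for IL10, -0.96 for FCRLB, -0.87 for NLRP3, -0.86 for APBB1IP and -0.82 for SERPINB3. PFKFB4 had -0.79, BNIP3 -0.77, TMPRSS11D -0.74, SERPINB4 -0.63, SLC2A1 -0.61, INSIG1 -0.58 and ERO1A -0.52. With the length covariate SERPINB1, NLRP3, PIK3R6, FCRLB, TREM1, S1PR1, INSIG1, SERPINB4 and ERO1A were still called, and the other 11 were not.

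Among genes called higher the differences were 1.28 for SLC7A11, 0.73 for PHGDH and 0.72 for VIM, none of which was called with the covariate. Genes with no call in parental cells alone also differed. The effect was more positive in parental cells for ORAI2 (0.92), EIF3C (0.85), CSNK2A2 (0.76), NOP53 (0.73), RABL6 (0.73), MTA2 (0.70), DYNLL2 (0.65) and IKZF1 (0.55). It was more negative for RABGGTB (-0.99), BTG1 (-0.93) and C1GALT1 (-0.70). With the covariate CSNK2A2 (0.18, adjusted p = 0.406) and IKZF1 (0.22, adjusted p = 0.24) were not called.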

How the results depend on the processing

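Counts of called genes in parental cells moved with the method, from 57 (8 higher, 49 lower) to 198 (43, 155) with DESeq2, 231 (46, 185) with no filter, 1203 (563, 640) with the length covariate and 1396 (678, 718) with the replicate block and that covariate. Leaving out 1 library gave 0 to 110 called, 0 to 18 higher and 0 to 92 lower. The replicate numbers did not pair the parental libraries (correlations of 0.22, -0.05 and 0.02), and the replicate block gave 56, of which 49 were shared. In regrown libraries these correlations were 0.01, 0.04 and 0.1, against -0.09 to 0.05 between unlike numbers. The ZFP91 change of -0.34 passed with DESeq2, with the covariate (adjusted p = 6.22e-05) and with block and covariate (6.57e-07), and was -0.37 to -0.32 without 1 library. No called gene changed sign, 31 of 57 were called in each of the 9 alternatives that keep all 6 libraries, and 0 in every fit without 1 library. The difference between populations, called for 1399 genes, gave 2257 with the block, 2441 with DESeq2, 2333 with no filter and 0 to 3355 without 1 library. The length covariate there (88) and in regrown cells (0 of 4186 calls), and leaving out 1 library in regrown cells (2410 to 5519) or under lenalidomide (25 to 105, against 49), were chosen after seeing the data. DESeq2 gave 30 under lenalidomide. The cause of these moves was not tested. Of the named genes' values under the alternatives, 1474 kept their direction and side of the threshold, 110 newly passed, 229 no longer passed and 0 reversed. Depth limits the lenalidomide values, at 41571 counts in 1 library.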
